A study of Mus musculus with 16 samples.

Results

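Transcripts of the antioxidant response and of the metallothioneins were compared in the livers of 16 mice by RNA sequencing. The set was taken by gene name and holds 10 of the 55487 genes in the deposited table: Nfe2l2 and Keap1, the glutathione synthesis genes Gclc and Gclm, the redox enzymes Txnrd1, Srxn1 and Nqo1, the haem oxygenase Hmox1, and the metallothioneins Mt1 and Mt2. No measured value entered that rule. All mice were male C57BL6/J, and each library was made from whole liver of 1 mouse. By the labels they were 10 weeks old when they began 8 weeks on a diet with 60 kcal% fat, although the study's methods give another age and schedule. Their next diet was again rich in fat and held either the standard amount of protein (SP) or a raised amount (HP). On either diet the mice received vehicle or G108, a glucagon analogue peptide, injected under the skin once a day over 22 days, with G108 at 2.5 nmol/kg. Livers were taken after a 4 h fast. Each of the 4 groups is named by its treatment and diet and held 4 mice, and the mice given vehicle served as controls.

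NRF2, the protein made from Nfe2l2, is a transcription factor that switches on genes of glutathione and thioredoxin metabolism through antioxidant response elements. KEAP1 holds NRF2 in the cytoplasm and passes it on for degradation until oxidants or electrophiles modify KEAP1, so NRF2 is controlled largely at the level of the protein. Metallothioneins are small cysteine-rich proteins that bind zinc and copper, and in liver their genes respond to zinc through the factor MTF1, to glucocorticoids and to inflammatory cytokines.

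The deposited values are TPM, which scale the reads of each library by exon length to the same total. The libraries held 27.8 to 45.0 megareads assigned to genes, and the median was lower with G108 on SP (29.7 megareads) than with vehicle on SP (40.4 megareads). Differences are given as log2 fold changes of TPM + 1 from limma, adjusted over 11839 genes whose mean TPM reached 1, and a gene was called at an adjusted p under 0.05. On this scale 77.0% of all genes tested were called higher with G108 on SP, with a median log2 fold change of 0.60 over all genes. Most differences are therefore also given on TPM divided by median-of-ratios size factors, called scaled values here. On that scale the median change of all genes was close to 0 (between -0.01 and 0.01 in the 5 comparisons). Members of the set are compared by their position among all genes where the scales part. In whole liver, a change in the share of a cell type cannot be told apart from a change in RNA per cell.

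With G108 on SP, 6 of the 10 transcripts were called higher in TPM (Srxn1, Txnrd1, Keap1, Nqo1, Hmox1 and Gclm), none was called lower (0.608% of all genes were), and Nfe2l2, Gclc, Mt1 and Mt2 were not called. This count stood beside 77.0% of all genes called higher and 79.8% with an unadjusted p under 0.05, and the median of the 10 log2 fold changes was 0.83 beside 0.60 for all genes. On scaled values 0 of the 10 were called by limma, 3 had an unadjusted p under 0.05 (Srxn1, Gclc and Keap1), and voom on the recovered reads with the same scaling called 1 (Srxn1), beside 1.47% of all genes called higher in that fit. With limma at that scaling 2.72% of all genes were called (1.33% higher and 1.39% lower) and 17.7% had an unadjusted p under 0.05, and the median of the set was 0.21 beside -0.01. The groups did not overlap in TPM for 4 members (Keap1, Nqo1, Txnrd1 and Srxn1), all higher with G108, as in 56.0% of all genes. With array quality weights all members but Mt2 were called higher in TPM, beside 82.8% of all genes, and leaving out G108 SP mouse 3 gave 4 called beside 66.7%.

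**Figure D1:**
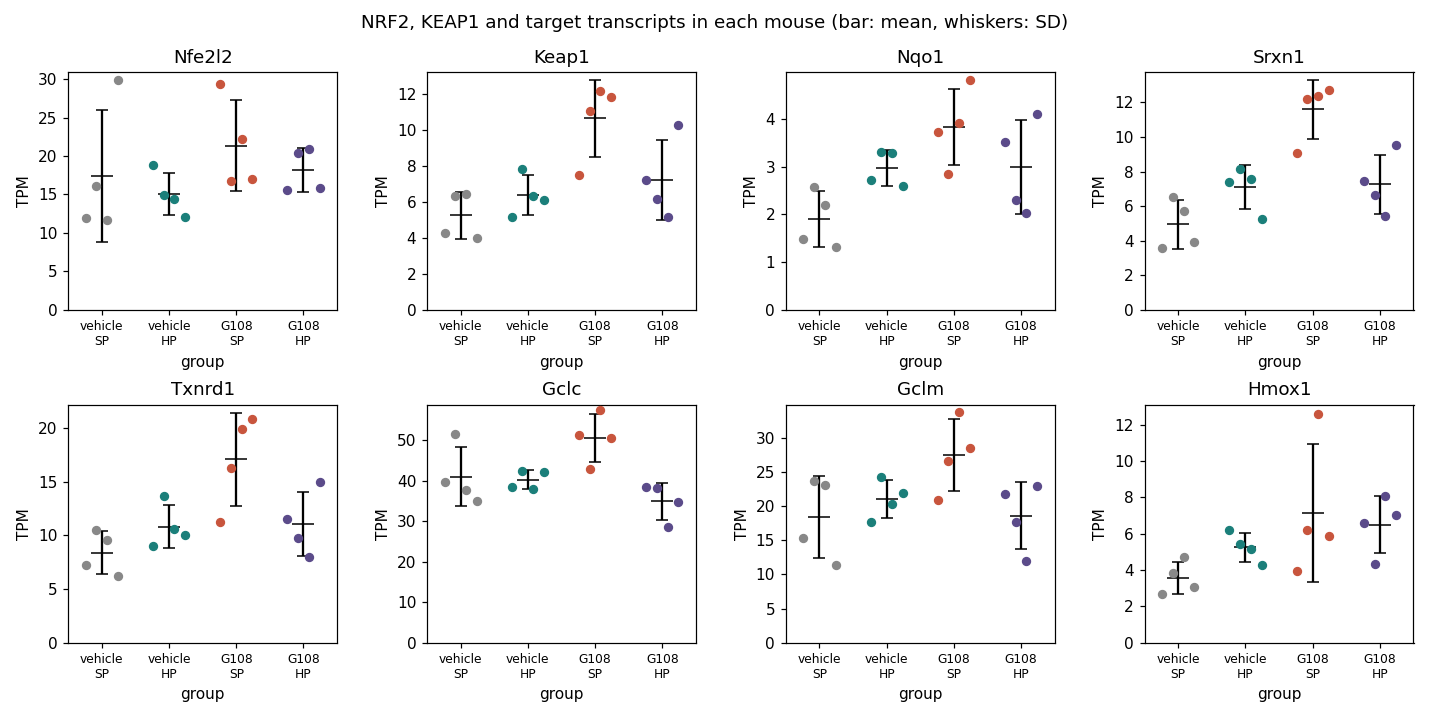
TPM (y axis, linear from 0) of NRF2, KEAP1 and 6 target transcripts in each of the 4 groups (x axis); each point is 1 mouse, the bar is the mean and the whiskers are the SD (n = 4). The G108 SP mice of Srxn1 lie between 9.09 and 12.7 TPM, above all 4 vehicle SP mice.

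Srxn1 encodes sulfiredoxin, which restores overoxidised peroxiredoxins, and showed the largest difference of the set in TPM (ENSMUSG00000032802, GRCm38 chr2:152105516-152111376, plus strand). Srxn1 measured 3.60, 6.53, 5.73 and 3.91 TPM in the vehicle SP mice and 9.09, 12.2, 12.4 and 12.7 TPM in the G108 SP mice. Every G108 SP mouse lay above every vehicle SP mouse, and mouse 1 was the lowest of its group. The log2 fold change was 1.10 (SE 0.19, adjusted p = 0.000727), at percentile 93.6 of all genes. Scaled by median-of-ratios the vehicle SP mice held 5.18 to 6.75 and the G108 SP mice 7.73 to 9.20, so the groups still did not overlap, as in 4.52% of all genes in that direction. The scaled log2 fold change was 0.42 (SE 0.11, unadjusted p = 0.00144, adjusted p = 0.0516), at percentile 92.5. Leaving out 1 mouse at a time moved that adjusted p between 0.0225 and 0.167, and it passed 0.05 without vehicle HP mouse 1, vehicle HP mouse 4 or G108 SP mouse 1. With voom on the recovered reads and the same scaling, the log2 fold change of Srxn1 was 0.49 (adjusted p = 0.0464).

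The start of Srxn1 is shown because its G108 SP and vehicle SP mice did not overlap on either scale. The window runs from 250 bases before to 30 bases after the RefSeq start, in GRCm38.p6 at chr2:152105274-152105553 on the plus strand, 5′ to 3′. Capitals mark matches, on either strand, to TGANTCAGC, the letters bound by NRF2 with small MAF proteins, and to TGCACNC or TGCGCNC, the metal response element.
Srxn1: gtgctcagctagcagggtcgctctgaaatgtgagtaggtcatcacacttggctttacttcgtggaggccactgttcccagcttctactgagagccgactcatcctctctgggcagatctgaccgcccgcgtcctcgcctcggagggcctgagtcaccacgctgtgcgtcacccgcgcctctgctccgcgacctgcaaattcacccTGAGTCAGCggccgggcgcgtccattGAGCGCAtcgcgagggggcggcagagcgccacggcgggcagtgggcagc
The NRF2-MAF letters begin 45 bases before the start, and a metal response element match begins 19 bases before it on the other strand. Over 32851 such RefSeq windows, 1.11% held TGANTCAGC and 24.1% held a metal response element match. Another form of the antioxidant response element, TGACNNNGC, occurred in 11.5% of windows but not in that of Srxn1. Windows were at hand for 8 of the 10 members, without Gclc and Hmox1. TGACNNNGC was found in those of Nfe2l2, Gclm and Mt2 and in 1 of the windows of Txnrd1, and no match to any of the motifs was found in those of Keap1 and Nqo1. The Gclm window also held 2 metal response element matches, and 6.4% of all windows held 2 or more. A match is a description of letters and not a binding site. Letters outside these windows were not searched, so a lack of matches does not show that a gene lacks such an element.

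Keap1 encodes the adaptor that holds NRF2 (ENSMUSG00000003308, chr9:21229730-21239361, minus strand). Keap1 measured 4.25, 6.31, 6.45 and 3.99 TPM with vehicle on SP and 7.50, 11.1, 12.2 and 11.8 TPM with G108 on SP. The groups did not overlap, and mouse 1 was again the lowest with G108. Its log2 fold change was 0.90 (SE 0.21, adjusted p = 0.00227), and after scaling it was 0.22 (SE 0.10, adjusted p = 0.28), at percentile 80.8 of all genes. Keap1 exons overlap the gene Gm16754 on the opposite strand by 510 bases, so reads of that stretch cannot be told apart, since the counting is not stated to use strand. The recovered reads of Gm16754 came to 27.8% to 37.1% of those of Keap1 in a library (median 34.4%).

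Nfe2l2 itself (ENSMUSG00000015839, chr2:75675513-75704641, minus strand) was not called with G108 on SP. It measured 11.9, 16.1, 11.7 and 29.9 TPM with vehicle and 29.4, 16.7, 22.2 and 17.1 TPM with G108. The groups overlapped, and vehicle SP mouse 4 held the highest value of all 16. The log2 fold change was 0.35 (SE 0.26, adjusted p = 0.221) in TPM and -0.39 (SE 0.33, adjusted p = 0.526) after scaling, so its direction turned with the scale. Leaving out 1 mouse at a time moved the TPM value between 0.19 (adjusted p = 0.52, without G108 SP mouse 1) and 0.63 (adjusted p = 0.0154, without vehicle SP mouse 4), the 1 of 16 such fits in which it was called. In that mouse the 5 red blood cell markers summed to 2106 TPM, the highest of the 16. Its hepatocyte markers (17418 TPM), its stellate cell markers (7.17 TPM) and its size factor (0.683) were the lowest of the 16. The part of these in the result was not tested.

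Txnrd1 encodes cytosolic thioredoxin reductase (ENSMUSG00000020250, chr10:82833951-82897712, plus strand). It measured 7.27, 10.5, 9.61 and 6.19 TPM with vehicle on SP and 11.2, 16.3, 19.9 and 20.8 TPM with G108. The groups did not overlap in TPM. In TPM the difference was 0.93 (SE 0.22, adjusted p = 0.0026), and 0.22 (SE 0.11, adjusted p = 0.314) after scaling, where the groups overlapped.

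Nqo1 encodes a quinone reductase widely used as a readout of NRF2 activity, and it had the lowest mean TPM of the 10 in each group (ENSMUSG00000003849, chr8:107388225-107403206, minus strand, 81 to 179 recovered reads a library). It measured 1.49, 2.57, 2.19 and 1.32 TPM with vehicle on SP and 3.73, 2.85, 3.91 and 4.81 TPM with G108 on SP. The groups did not overlap in TPM. In TPM the difference was 0.75 (SE 0.18, adjusted p = 0.0033), and 0.19 (SE 0.12, adjusted p = 0.404) after scaling, where the groups overlapped.

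Gclc and Gclm encode the catalytic and the modifier subunit of glutamate-cysteine ligase, which makes the first and limiting step of glutathione synthesis. Gclc had the highest mean TPM of the 10 in every group (ENSMUSG00000032350, chr9:77754535-77794485, plus strand), with 39.8, 51.5, 37.7 and 35.1 TPM with vehicle on SP and 51.3, 42.9, 57.4 and 50.4 TPM with G108 on SP. The groups overlapped through vehicle SP mouse 2, the highest of its group. Its log2 fold change was 0.30 (SE 0.15, adjusted p = 0.0719), at percentile 14.9 of all genes in TPM. After scaling it was -0.46 (SE 0.13, unadjusted p = 0.00344, adjusted p = 0.0845), at percentile 6.33, so Gclc lay above vehicle on one scale and below it on the other. The TPM difference passed the threshold without vehicle SP mouse 2 (0.41, adjusted p = 0.0168) and without G108 SP mouse 2 (0.38, adjusted p = 0.0454), and the scaled one passed without G108 SP mouse 1 (adjusted p = 0.0394).

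Gclm (ENSMUSG00000028124, chr3:122245557-122270732, plus strand) measured 15.4, 23.8, 23.1 and 11.4 TPM with vehicle on SP and 21.0, 26.6, 33.8 and 28.6 TPM with G108 on SP. Mouse 1 was the lowest with G108, and it lay below vehicle SP mice 2 and 3. The log2 fold change was 0.59 (SE 0.24, adjusted p = 0.0332), at percentile 49.4 of all genes, and -0.15 (SE 0.14, adjusted p = 0.552) after scaling. The TPM call was lost without vehicle SP mouse 1 or 4 or without G108 SP mouse 2, 3 or 4, with a highest adjusted p of 0.117 without vehicle SP mouse 4. It was also lost with voom on the recovered reads (0.43, adjusted p = 0.0507), with the replicate block (adjusted p = 0.0500086), with no filter on low TPM (adjusted p = 0.0733) and with only the groups compared (adjusted p = 0.0546). On both scales only Nfe2l2 and the other subunit gene lay as low among the members as Gclm or lower, and that difference between genes was not tested.

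Hmox1 encodes the inducible haem oxygenase, which is abundant in the liver's resident macrophages, the Kupffer cells (ENSMUSG00000005413, chr8:75093621-75100589, plus strand). It measured 2.66, 3.82, 4.70 and 3.08 TPM with vehicle on SP and 3.92, 6.17, 12.6 and 5.86 TPM with G108 on SP. G108 SP mouse 3 stood above all other mice, and mouse 1 lay within the vehicle range. The log2 fold change was 0.75 (SE 0.25, adjusted p = 0.0145), and 0.11 (SE 0.22, adjusted p = 0.796) after scaling. Without G108 SP mouse 3 it was 0.47 (adjusted p = 0.054). The 7 Kupffer cell markers summed to 105 TPM in that mouse and to 28.0 TPM in G108 SP mouse 1, the highest and the lowest of the 16. Of these, 6 reached the level to be tested, and 0 were called on SP on either scale. In TPM all 6 hepatocyte markers, 2 of 4 endothelial, 1 of 2 stellate and 1 of 5 red blood cell markers passed on SP, all higher in the G108 mice, while after scaling 0 of them did. These marker counts, with those of the Kupffer cells, stood beside 77.0% of all genes called higher in TPM. After scaling 2.72% of all genes were called in either direction. The part of these markers in the Hmox1 result was not tested.

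**Figure D2:**
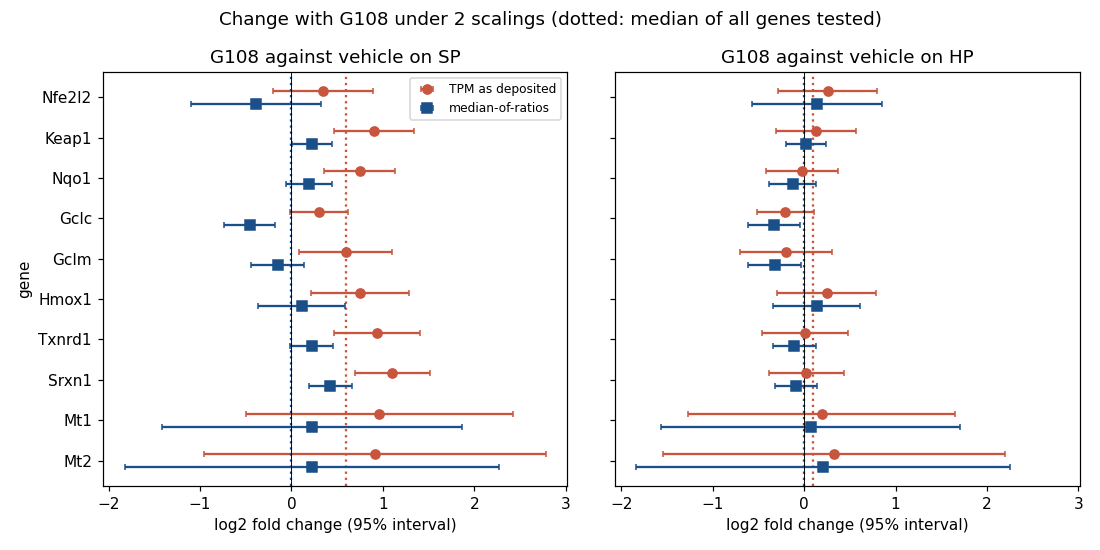
Log2 fold change of G108 against vehicle (x axis) of the 10 members (y axis) on SP (left) and on HP (right), with 95% intervals from limma over all 16 libraries; circles are TPM as deposited, squares are median-of-ratios scaled, and dotted lines are the median of all genes tested. On SP the circles of all 10 members lie above 0, as does the dotted line at 0.60, and the squares lie between -0.46 and 0.42.

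The metallothioneins had the widest spread of the set with vehicle. The coefficient of variation of Mt2 was the highest of the 10 in each group (58.9% to 154%), and that of Mt1 was 141% with vehicle on SP and 106% with vehicle on HP. Mt1 (ENSMUSG00000031765, chr8:94179082-94180327, plus strand) measured 79.0, 9.06, 6.66 and 6.87 TPM with vehicle on SP, 13.3, 6.52, 9.59 and 52.8 TPM with vehicle on HP, 29.9, 41.5, 29.2 and 16.6 TPM with G108 on SP and 16.4, 31.6, 10.4 and 14.997 TPM with G108 on HP. A single mouse stood far above the others in both vehicle groups, vehicle SP mouse 1 and vehicle HP mouse 4. The other vehicle SP mice lay below all 4 G108 SP mice.

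Mt2 (ENSMUSG00000031762, chr8:94172664-94173568, plus strand) measured 54.3, 5.38, 4.19 and 1.77 TPM with vehicle on SP, 5.02, 1.39, 4.15 and 37.1 TPM with vehicle on HP, 10.6, 30.6, 16.3 and 9.08 TPM with G108 on SP and 7.84, 24.5, 3.96 and 5.26 TPM with G108 on HP. The same 2 vehicle mice were the highest, and in the G108 groups mouse 2 was the highest on either diet for both genes. The exons of Mt2 overlap the antisense gene Gm45774 by 432 of 588 bases. The recovered reads of Mt2 and Gm45774 were equal in 12 of 16 libraries and differed by at most 2 reads in the rest, so the values of Mt2 cannot be told apart from those of its antisense partner. Mt1 shares none of its 31-base words with Mt2 or with any other gene, so Mt1 is free of that limit. The length set for Mt1 in the annotation, 1246 bases in 1 block, covers its introns, which lowers its level per length beside Mt2.

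On SP the log2 fold change with G108 was 0.96 (SE 0.69, adjusted p = 0.205) for Mt1 and 0.91 (SE 0.88, adjusted p = 0.342) for Mt2 in TPM. After scaling both were 0.23 (adjusted p = 0.881 for Mt1 and 0.906 for Mt2). Without vehicle SP mouse 1 the values were 1.77 (adjusted p = 0.0136) and 1.82 (adjusted p = 0.0485) in TPM, and 1.11 (adjusted p = 0.338) and 1.22 (adjusted p = 0.437) after scaling. In vehicle SP mouse 1 the 6 hepatocyte markers summed to 25300 TPM, within the range of the other mice (17418 to 57921). Its red blood cell (605 TPM) and endothelial (12.5 TPM) marker sums were the lowest of all mice. So was its bile duct sum (0.486 TPM), but 0 of the 4 bile duct markers reached the level to be tested. Its size factor (0.694) lay above only that of vehicle SP mouse 4 (0.683). The neutrophil, adipocyte and skeletal muscle markers were at or near 0 in every mouse. The part of these in the metallothionein values was not tested.

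**Figure D3:**
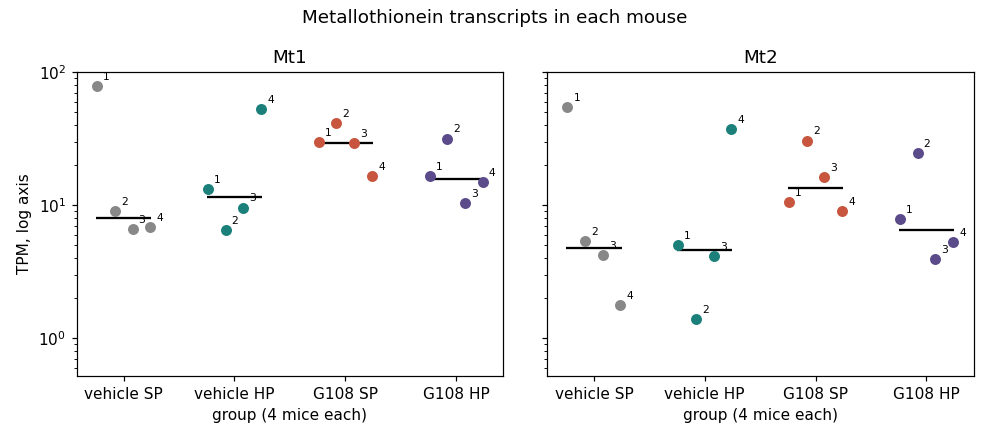
TPM of Mt1 (left) and Mt2 (right) on a log axis (y) in the 4 groups (x); each point is 1 mouse with its number, and the bar is the group median. The highest points are vehicle SP mouse 1 (79.0 and 54.3 TPM) and vehicle HP mouse 4 (52.8 and 37.1 TPM).

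The starts of Mt1 and Mt2 are shown because the genes lie side by side on chromosome 8 and moved together from mouse to mouse. Both windows are from RefSeq in GRCm38.p6, on the plus strand from 250 bases before to 30 bases after the start, Mt1 at chr8:94178839-94179118 and Mt2 at chr8:94172368-94172647. Capitals mark matches to the same 3 motifs.
Mt1: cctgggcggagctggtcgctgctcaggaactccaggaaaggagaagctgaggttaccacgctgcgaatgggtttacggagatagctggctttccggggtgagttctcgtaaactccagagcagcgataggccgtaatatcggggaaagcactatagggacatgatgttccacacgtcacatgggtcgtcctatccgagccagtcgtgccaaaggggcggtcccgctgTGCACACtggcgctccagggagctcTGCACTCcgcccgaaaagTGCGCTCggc
Mt2: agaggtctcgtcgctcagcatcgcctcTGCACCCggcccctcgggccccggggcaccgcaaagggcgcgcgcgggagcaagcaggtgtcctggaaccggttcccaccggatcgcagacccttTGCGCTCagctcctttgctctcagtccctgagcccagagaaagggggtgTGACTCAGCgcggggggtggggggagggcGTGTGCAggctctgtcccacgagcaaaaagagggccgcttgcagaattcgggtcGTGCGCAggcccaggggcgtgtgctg
The Mt1 window held 3 metal response element matches, the first beginning 23 bases before the start, and the Mt2 window held 4. A count of 3 or more occurred in 1.73% of the 32851 windows. The Mt2 window also held TGACTCAGC beginning 79 bases before the start, letters that fit both antioxidant motifs searched.

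Over mice, Mt1 and Mt2 moved together within groups. The deviations from the group means on the scaled log2 values gave Pearson's r = 0.966 (permutation p = 0.00013, adjusted p = 0.0021 over 45 pairs of members) and Spearman's rho = 0.906 (permutation p = 0.00026), and r = 0.91 without the 2 mice farthest from the median. The genes most like Mt1 over the 16 libraries were Gm45774 (Pearson's r = 0.968 on scaled log2 values, groups pooled), whose recovered reads match those of Mt2, followed by Gm49417 (0.848), Grpel2 (0.806), Gm28876 (0.773) and Zkscan1 (0.773). Those most like Nqo1 were Gfer (0.805), Gm8399 (0.782), Clpb (0.774), Gm6566 (0.771) and Rars2 (0.762).

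Nfe2l2 and Keap1 moved in opposite directions within groups. Pearson's r was -0.843 (permutation p = 7e-05, adjusted p = 0.0021), Spearman's rho was -0.827 (permutation p = 3e-05), and r was -0.873 without the 2 farthest mice. Nfe2l2 and Txnrd1 gave r = -0.847 (permutation p = 0.00014, adjusted p = 0.0021) and rho = -0.794 (permutation p = 0.00113), with r = -0.81 without the 2 farthest mice. Keap1 and Txnrd1 gave r = 0.858 (permutation p = 0.00032, adjusted p = 0.0036) and rho = 0.824 (permutation p = 0.00071), with r = 0.786 without the 2 farthest.

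Of the 45 pairs, 6 had an adjusted p under 0.05, and the other 2 were Nfe2l2 with Gclm (r = -0.816, adjusted permutation p = 0.021) and Keap1 with Gclc (r = -0.775, adjusted permutation p = 0.0399). The share of such pairs over all genes is not given here, so none of these relations can be called particular to the members. By Spearman's rho those 2 pairs missed the threshold (-0.679, adjusted permutation p = 0.0841, and -0.738, adjusted permutation p = 0.0544), and without the 2 farthest mice r was -0.674 and -0.621. On scaled values Nfe2l2, Keap1 and Txnrd1 also moved with the scaling factor of the library. Its log2 value gave r = -0.728 with Nfe2l2 (permutation p = 0.00332, adjusted p = 0.0083), r = 0.823 with Keap1 (permutation p = 0.00092, adjusted p = 0.00307) and r = 0.811 with Txnrd1 (permutation p = 2e-05, adjusted p = 0.000133). Spearman's rho was -0.729 (permutation p = 0.00478), 0.818 (permutation p = 0.00104) and 0.891 (permutation p = 1e-05, the smallest the permutations can give). In TPM the factor gave r = 0.965 with Keap1, 0.960 with Txnrd1, 0.913 with Gclm, 0.892 with Srxn1 and 0.830 with Nqo1. The adjusted permutation p of these was at most 0.00589. Nfe2l2 gave r = -0.447 in TPM (adjusted permutation p = 0.203) and, like the remaining members, missed the threshold there. The part of the scaling in these relations was not tested.

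**Figure D4:**
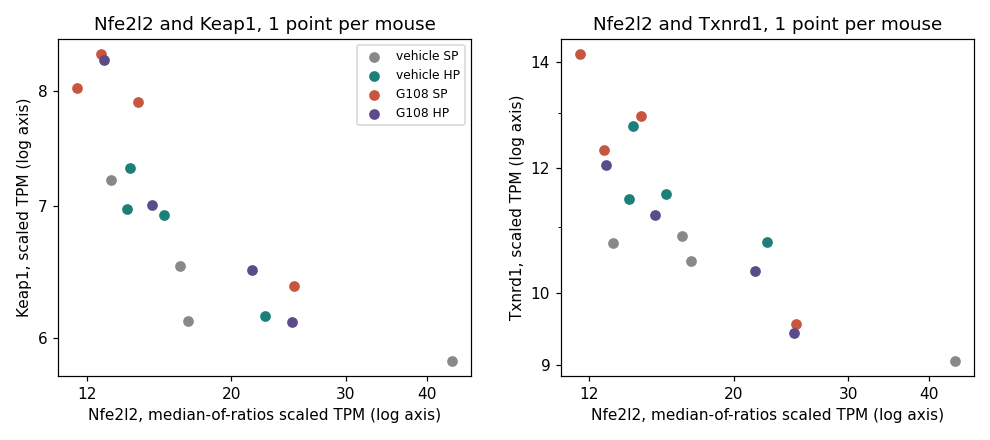
Scaled TPM of Keap1 (left, y axis) and Txnrd1 (right, y axis) against scaled TPM of Nfe2l2 (x axis), all on log axes, with 1 point per mouse coloured by group. Both tend to be lower where Nfe2l2 is higher, over 11.6 to 43.8 on the x axis, and vehicle SP mouse 4 is the point farthest to the right.

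With G108 on HP, 0 of the 10 members were called and 0 had an unadjusted p under 0.05 in TPM, beside 1.11% of all genes called and 11.9% at the unadjusted threshold. Voom on the recovered reads also called 0 of 10 here and in the diet and interaction comparisons. The median of the 10 log2 fold changes was 0.08 beside 0.09 for all genes. Srxn1 measured 7.37, 8.16, 7.54 and 5.24 TPM with vehicle on HP and 7.45, 6.64, 5.44 and 9.51 TPM with G108 on HP. The groups overlapped throughout, with a log2 fold change of 0.02 (95% interval -0.38 to 0.43, adjusted p = 0.992). Keap1 gave 0.13 (-0.31 to 0.57), Txnrd1 0.01 (-0.46 to 0.48) and Nqo1 -0.02 (-0.41 to 0.37). The SP values of these 4 genes in TPM lay above the upper bounds of these intervals, as did the median of all genes on SP (0.60). After scaling the HP values were -0.09 (-0.32 to 0.14) for Srxn1, 0.02 (-0.20 to 0.24) for Keap1, -0.11 (-0.34 to 0.13) for Txnrd1 and -0.13 (-0.38 to 0.13) for Nqo1. There the SP value of Keap1 (0.22) lay inside its interval, and those of Srxn1, Txnrd1 and Nqo1 lay above theirs. The difference between the diets is given as the interaction.

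After scaling 0 of 10 were called on HP by limma, beside 1.22% of all genes, and 2 had an unadjusted p under 0.05, as did 11.3% of all genes. Those were the glutathione synthesis genes, Gclc at -0.33 (SE 0.13, unadjusted p = 0.0251, adjusted p = 0.321) and Gclm at -0.32 (SE 0.14, unadjusted p = 0.032, adjusted p = 0.36), at percentiles 7.39 and 7.66 of all genes. Gclc measured 38.4, 42.5, 37.9 and 42.2 TPM with vehicle on HP and 38.4, 38.2, 28.6 and 34.6 TPM with G108 on HP. The G108 HP mice reached up to the lower vehicle HP mice, and mouse 3 was the lowest of all 16. Mt1 and Mt2 had log2 fold changes of 0.19 (95% interval -1.27 to 1.65) and 0.33 (-1.54 to 2.20) on HP in TPM, and both intervals hold changes of more than 1 log2 unit in either direction. After scaling the changes were 0.07 for Mt1 and 0.21 for Mt2.

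Diet was compared within each treatment. With vehicle, 0 of the 10 were called on HP against SP, as for all genes tested (0%), and 2 members had an unadjusted p under 0.05 beside 3.16% of all genes in TPM and 3.94% after scaling. Nqo1 measured 1.49, 2.57, 2.19 and 1.32 TPM on SP and 2.72, 3.31, 3.29 and 2.59 TPM on HP. All 4 HP mice lay above the SP mice on both scales, by a narrow gap in TPM (2.59 against 2.57), as did 1.33% of all genes in TPM and 0.938% after scaling. Its log2 fold change was 0.48 (SE 0.18, unadjusted p = 0.0201, adjusted p = 0.727) in TPM and 0.36 (SE 0.12, unadjusted p = 0.00896, adjusted p = 0.832) after scaling. Srxn1 was 0.46 (SE 0.19, unadjusted p = 0.0295, adjusted p = 0.727) in TPM and 0.30 (SE 0.11, unadjusted p = 0.015, adjusted p = 0.832) after scaling, with 1 HP mouse (5.24 TPM) inside the SP range. Hmox1 was 0.47 (SE 0.25, adjusted p = 0.727) in TPM and 0.32 (SE 0.22, adjusted p = 0.832) after scaling.

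With G108, 0 of the 10 were called on HP against SP and 5 had an unadjusted p under 0.05 in TPM (Keap1, Gclc, Gclm, Txnrd1 and Srxn1), all lower on HP, beside 0% of all genes called and 45.0% at the unadjusted threshold. The median of the set was -0.54 beside -0.35 for all genes. Srxn1 was -0.62 (SE 0.19, adjusted p = 0.0728), and Gclc was -0.52 (SE 0.15, adjusted p = 0.0728) with groups that did not overlap, as in 20.5% of all genes lower on HP. After scaling 0 of 10 were called and 0 had an unadjusted p under 0.05, beside 5.40% of all genes, and Srxn1 was -0.21 (SE 0.11, adjusted p = 0.858) with the 4 HP mice (6.46 to 7.66) just below the 4 SP mice (7.73 to 9.20), as in 2.12% of all genes. With array quality weights 6 members were called lower in TPM, beside 71.1% of all genes. Leaving out G108 HP mouse 4 gave 5 members called lower in TPM beside 42.4% of all genes, leaving out G108 SP mouse 1 gave 4 beside 25.3%, and leaving out vehicle SP mouse 4 gave 2 beside 14.6%.

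Whether the G108 difference depended on diet was tested as an interaction. In TPM 0 of the 10 were called by limma and 6 had an unadjusted p under 0.05 (Keap1, Nqo1, Gclc, Gclm, Txnrd1 and Srxn1), beside 0% and 48.0% of all genes. All 10 values were below 0, with a median of -0.77 beside -0.49 for all genes. Srxn1 was the farthest from 0 at -1.08 (SE 0.27, unadjusted p = 0.00112, adjusted p = 0.0799), and after scaling it was -0.51 (SE 0.15, unadjusted p = 0.00455, adjusted p = 0.575), at percentile 6.82 of all genes. It was the only member with an unadjusted p under 0.05 after scaling, beside 7.22% of all genes. With array quality weights 6 members were called below 0 in TPM, beside 60.7% of all genes. Leaving out vehicle SP mouse 2 or G108 HP mouse 4 gave 5 members called in TPM, beside 29.2% and 43.7% of all genes below 0, and leaving out G108 SP mouse 1 gave 4 beside 33.3%.

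Other genes of the pathway were counted from fixed lists. Of 24 other NRF2 targets tested, 19 were called higher and 0 lower with G108 on SP in TPM, and 1 higher and 1 lower after scaling. All genes were called higher in 77.0% and lower in 0.608% in TPM, and in 1.33% and 1.39% after scaling. Cbr1, a carbonyl reductase, was the one higher on both scales, at 20.1, 18.1, 17.3 and 9.70 TPM with vehicle on SP and 34.9, 41.4, 52.8 and 47.6 TPM with G108, with no overlap. Its log2 fold change was 1.41 (SE 0.22, adjusted p = 0.000456), and 0.67 (SE 0.17, adjusted p = 0.0499) after scaling. Osgin1, an oxidative stress response gene, was the one lower after scaling, at -1.26 (adjusted p = 0.0132), while in TPM it was -0.49 (adjusted p = 0.0624) on SP. On HP Osgin1 was the 1 of 24 called, beside 1.11% of all genes in TPM and 1.22% after scaling, at 45.0, 53.8, 47.9 and 83.7 TPM with vehicle and 34.3, 28.8, 18.7 and 21.2 TPM with G108, a log2 fold change of -1.13 (SE 0.23, adjusted p = 0.0277) and -1.25 (SE 0.25, adjusted p = 0.029) after scaling.

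Of 8 NRF2 regulators tested, such as the KEAP1 partner Cul3 and the small MAF genes, 7 were called higher with G108 on SP in TPM and 0 after scaling, also at an unadjusted p under 0.05, where 17.7% of all genes passed. Of 18 other antioxidant enzymes, such as superoxide dismutases, catalase and peroxiredoxins, 17 were called higher in TPM, beside 77.0% of all genes, and 0 after scaling. There 3 had an unadjusted p under 0.05, Prdx6 at 0.30 and Txnrd2 at 0.34 above 0 and Glrx at -0.37 below it. Haem turnover, without Hmox1, gave 5 of 6 in TPM and 0 after scaling, where 1 had an unadjusted p under 0.05 (Blvrb, -0.29). The medians of these lists in TPM were 0.80 for the other targets, 0.58 for the regulators, 0.82 for the enzymes and 0.73 for haem turnover, beside 0.60 for all genes, and after scaling 0.03, -0.10, 0.10 and 0.07, beside -0.01. As for all genes, none of these lists held a limma call for diet or for the interaction on either scale.

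Lists that touch the regulation of metallothioneins were counted in the same way. Of 12 zinc and copper genes tested, 9 were called higher with G108 on SP in TPM, beside 77.0% of all genes, and 1 after scaling, beside 1.33%, the zinc importer Slc39a4. Slc39a4 measured 2.69, 3.48, 2.53 and 1.48 TPM with vehicle on SP and 6.98, 7.02, 10.3 and 9.10 TPM with G108, with no overlap, a log2 fold change of 1.41 (SE 0.22, adjusted p = 0.000409) and 0.79 (SE 0.15, adjusted p = 0.0101) after scaling. Of 7 glucocorticoid response genes, 6 were called higher on SP in TPM and 2 after scaling (Sgk1 and Errfi1), and on HP 2 in TPM (Sgk1 and Per1) and 1 after scaling, where 1.11% and 1.22% of all genes were called in either direction. The kinase gene Sgk1 gave 1.45 (SE 0.19, adjusted p = 0.00019) on SP and 1.17 (SE 0.19, adjusted p = 0.0132) on HP, and 0.84 (adjusted p = 0.00497) and 1.08 (adjusted p = 0.00929) after scaling. Errfi1, a feedback inhibitor of the EGF receptor, gave 1.37 (SE 0.18, adjusted p = 0.000157) on SP and 0.60 (adjusted p = 0.00302) after scaling. Of 11 acute phase genes, 5 were called higher and 1 lower on SP in TPM, and 0 higher and 3 lower after scaling (Orm1, Orm2 and Orm3), beside 0.608% of all genes lower in TPM and 1.39% after scaling. Orm3, an orosomucoid gene, was -1.59 (SE 0.32, adjusted p = 0.00135), and -2.06 (SE 0.38, adjusted p = 0.00888) after scaling. It measured 3.83, 2.58, 4.64 and 13.2 TPM with vehicle on SP, where mouse 4 stood far above the others. With G108 on SP it was near the floor, at 2.14, 0.819, 0.935 and 0.540 TPM, from 10 to 36 recovered reads. Vehicle SP mouse 1 held the most Mt1 and Mt2. Its summed glucocorticoid response (126 TPM) and zinc and copper genes (239 TPM) were the lowest of all mice. After scaling its mean log2 values there, 2.98 and 3.51, lay within the range of the others. So did its acute phase sum (3999 TPM). For vehicle HP mouse 4, the next highest, the first 2 sums were 221 and 274 TPM (3.20 and 3.69 after scaling). The part of these lists in the metallothionein values was not tested.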

How the data were processed

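Liver RNA of 16 mice was sequenced, and 1 table of the whole series was used, with 1 column per mouse. According to the study's methods and the submitters' processing notes, reads were checked with FastQC 0.11.8, aligned to GRCm38 with HISAT2 2.0.5 and counted per gene with featureCounts. The deposited values are TPM, which the authors made from counts and exon lengths. Whether counting used strand is not given in the sources used here. DESeq2 1.36.0 was the authors' tool for differential expression and was not used here, since no counts were used as the main measure.

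Samples were grouped by the labels' treatment and dietary protein. Symbols were matched to 55141 of 55487 gene identifiers. TPM + 1 was taken to log2, genes were kept where the mean TPM reached 1 (11839), and limma 3.58.1 in R 4.3.3 fitted 1 mean per group over all 16 libraries with an intensity trend and Benjamini-Hochberg adjustment. The comparisons were G108 against vehicle on each diet, HP against SP within each treatment, and the interaction. Median-of-ratios scaling used 11591 genes. Reads were recovered from TPM and exon lengths, and of 139184 low values 98.8% came out whole within 0.02. These recovered reads give the depth of 27.8 to 45.0 megareads per library, and a member held between 27 (Mt2) and 5570 (Gclc) of them in a library. The code was tested on simulated data. Relations between members used deviations from group means and 100000 permutations within groups.

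The members and lists were chosen with earlier results of these data known. Named beyond the 10 members were, per list and comparison, up to 4 genes called on both scales with the smallest adjusted p, and the 5 genes most correlated with Mt1 and with Nqo1. Per1, Orm1, Orm2, Prdx6, Txnrd2, Glrx, Blvrb and the SP value of Osgin1 were named after their values were seen, as was the choice of promoter window. Alternatives were another pseudocount (0.1), no filter or a minimum mean TPM of 5, size factors by median of ratios, only the groups compared, a replicate block, array quality weights, voom on recovered reads and each mouse left out.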

Additional observations from a re-analysis of the deposited data

Results flagged for a closer look

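Within groups of 4 mice, 5 of the 40 combinations of member and group held 1 mouse that stood apart in TPM. Its gap to its nearest neighbour took more than 0.829 of the group's range, the critical value of Dixon's test. For normally distributed values chance gives about 1 in 20, and the share over all genes is not given here. For Mt1 the gap was 0.967 of the range with vehicle on SP, through mouse 1, and 0.855 with vehicle on HP, through mouse 4. For Mt2 it was 0.931 with vehicle on SP and 0.898 with vehicle on HP, through the same mice, and these genes are not independent of each other. For Srxn1 it was 0.854 with G108 on SP, where mouse 1 was the lowest. That mouse had the lowest size factor of its group (1.18). On scaled values its Srxn1 was 7.73, close to mouse 3 at 8.03, with mice 2 and 4 at 9.20 and 8.65.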

How the results depend on the processing

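On SP the count of members called higher was 6, and was 5 to 6 with another pseudocount, other filters on low TPM, only the groups compared and voom. Beside these counts, 76.1% of all genes were called higher with the other pseudocount and 32.4% with no filter. The share was 82.6% with a minimum mean TPM of 5, where Nqo1 was too low to be tested. It was 71.8% with only the groups compared and 64.4% with voom. The count of members was 9 with array quality weights, beside 82.8% of all genes. It was 0 with median-of-ratios scaling and 0 with the replicate block and that scaling. It was 1 (Srxn1) with voom and that scaling, an alternative chosen after seeing the data. In these fits, in that order, 1.33%, 0.811% and 1.47% of all genes were called higher. With array quality weights the count was 6 for HP against SP with G108 and 6 for the interaction, beside 71.1% and 60.7% of all genes, and 0 without weights. Leaving out 1 mouse at a time gave 4 to 7 on SP, 0 to 5 for HP against SP with G108 and 0 to 5 for the interaction in TPM, and 0 to 2 on SP after scaling. Beside these ranges, 65.6% to 78.5% of all genes were called higher on SP in TPM. After scaling 1.33% to 3.98% were called on SP in either direction. In TPM 0% to 42.4% of all genes were called lower for HP against SP with G108, and 0% to 43.7% below 0 for the interaction. The lowest count on SP, 4, came without G108 SP mouse 3, beside 66.7% of all genes. On HP and for diet with vehicle 0 were called in each of these fits, where at most 18.0% and 0.667% of all genes were.

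Mouse numbers were shared between groups, but these were different mice, and same-numbered mice did not deviate together (median r -0.03 against 0.02 for other pairs). The replicate block gave 5 members called on SP, losing Gclm, beside 75.0% of all genes called higher, and changed no other call of a member on the TPM scale.

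Median-of-ratios scaling, with or without the replicate block, turned the sign of 12 values. On SP these were Nfe2l2 (-0.39), Gclc (-0.46, and -0.47 with voom) and Gclm (-0.15), on HP Txnrd1 (-0.11) and Srxn1 (-0.089), for diet with G108 Nfe2l2 (0.23), Nqo1 (0.042) and Hmox1 (0.34), for diet with vehicle Mt1 (-0.10), and for the interaction Nfe2l2 (0.53), Gclc (0.13) and Hmox1 (0.028). None of these 12 was past the threshold except Gclm on SP. Array quality weights turned Txnrd1 (-0.00705) and Srxn1 (-0.060) on HP and Nfe2l2 (0.13) and Gclm (-0.081) for diet with vehicle. Voom turned Nqo1 on HP (0.010), Hmox1 for diet with G108 (0.16) and Nfe2l2 for the interaction (0.14).

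Leaving out 1 mouse turned values that were not called. Their ranges in TPM were -0.036 to 0.26 for Keap1, -0.15 to 0.10 for Nqo1, -0.10 to 0.14 for Srxn1, -0.14 to 0.14 for Txnrd1, -0.16 to 0.78 for Mt1 and -0.21 to 1.12 for Mt2 on HP. For diet with vehicle they were -0.081 to 0.10 for Gclc, -0.25 to 0.17 for Nfe2l2, -0.51 to 0.89 for Mt1 and -1.01 to 0.69 for Mt2. For diet with G108 the range of Hmox1 was -0.25 to 0.24, and for the interaction those of Nfe2l2 and Mt2 were -0.37 to 0.070 and -1.49 to 0.21. On SP the ranges in TPM were 0.19 to 0.63 for Nfe2l2, 0.23 to 0.41 for Gclc, 0.64 to 1.77 for Mt1 and 0.38 to 1.82 for Mt2, and on scaled values they were -0.54 to -0.40 for Gclc, -0.14 to 1.11 for Mt1 and -0.27 to 1.22 for Mt2. The cause of these changes was not tested.

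With 4 mice a group and a standard error of 0.69 for Mt1 and 0.88 for Mt2 in TPM, only large changes of the metallothioneins could have been called. Nqo1 and Mt2 rested on the fewest reads, from 81 and 27 in a library.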
